A study of Homo sapiens with 12 samples.

Results

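The genes described here are effector genes reported to be raised by EWS/FLI, the fusion transcription factor that drives Ewing sarcoma: receptors, secreted factors, kinases, chromatin proteins, transporters and enzymes that act downstream of the fusion. The list holds 36 genes and leaves out the core transcription factors of the tumour. A gene was kept where the deposited value table held an entry annotated to that gene alone whose values ran to 3 decimals in any array. This gave 35 of the 36, out of 16913 genes kept in all, and 32 of the 35 passed a filter on low signal, out of 10148 genes tested. GLI1, the Hedgehog transcription factor, had only an entry with at most 2 decimals and has no value here. TERT, CHGA and LOXHD1 were under the filter and were not tested. PTPL1 is listed in the table under the symbol PTPN13.

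The 12 arrays came from 2 Ewing sarcoma cell lines, A673 and TC32, both carrying an EWS/FLI fusion. Cells of each line received the vehicle DMSO, 100 nM THZ531 or 500 nM THZ531 and were read after 6 hours, and each of the 6 groups held 2 arrays labelled as biological replicates. The labels spell the compound THZ_5_31_1, and they give the DMSO arrays a dose of 100 nM as well, which was read as the vehicle control of the treated arrays. THZ531 blocks the kinases CDK12 and CDK13 by covalent binding. These kinases act on the tail of RNA polymerase II while it transcribes, and the study asked how THZ531 altered transcription in these lines.

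Values are log2 signals, so a log2 difference of 1 stands for a 2-fold change in signal. Median log2 signal over the tested genes was 8.78 to 8.87 in the A673 DMSO arrays, 8.11 to 8.15 at 100 nM and 7.43 to 7.98 at 500 nM. In TC32 it was 7.94 to 8.08, 7.72 and 6.87 to 6.88. Between the 2 A673 arrays at 500 nM the median gap was 0.523, against 0.121 or less in the other groups. Synthetic spike-in RNA had been added to the samples, per the labels, and whether it set the scale of the values is not given in the sources used here. Each gene was therefore compared on the values as deposited and again relative to the array median, that is after subtracting each array's median over the kept genes. The first scale asks whether a gene's signal fell, and the second whether it fell more or less than the array as a whole. The arrays read RNA of whole cultures, so fewer cells and less RNA per cell cannot be told apart. Of 6 usable Ewing sarcoma markers, all 6 were above the filter level, a log2 signal of 5.94. So were 4 of 5 neural, 3 of 5 fibroblast, 3 of 5 epithelial, 2 of 5 endothelial and 1 of 3 usable blood cell markers. Passing that level thus does not mark a cell type. Of the blood cell markers, PTPRC stayed at group means of 3.63 to 4.06, CD3E at 5.28 to 6.24 and HBB at 5.85 to 7.2. KRT18, an epithelial keratin, was at 11.86 to 11.95 in the A673 groups and at 5.14 to 5.60 in the TC32 groups.

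EWS/FLI joins the activation domain of EWSR1 to the ETS DNA-binding domain of FLI1. It binds the core ETS motif GGAA and, with particular strength, runs of GGAA repeats, many of them far from the gene they act on. At such repeats it opens chromatin and creates new enhancers, and the genes it raises include surface receptors, neuropeptides and signalling proteins that are used as markers of the tumour. As deposited, the FLI1 entry itself fell from a group mean of 10.86 under DMSO to 9.42 at 100 nM and 8.20 at 500 nM in A673. In TC32 it fell from 8.98 to 6.26 and 5.66. The entry's mean in TC32 at 500 nM was under the filter level, so the exact size of the fall there is not known. Transcripts of the fusion and of an intact FLI1 gene cannot be told apart in that entry, and its part in the changes of the effector genes was not tested.

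The stretch of 250 bases before the most upstream RefSeq start (GRCh38.p14) was read for the 27 members with a promoter entry. GGAA, counted on both strands, was present in 26 of the 27 (96.3%), with PRKCB as the exception, and in 92.7% of all 35116 promoter entries. The tandem GGAAGGAA, which counts as 2 matches of GGAA, was present in CAV1 and LOXHD1, 2 of 27 (7.41%), against 3.06% of all entries. The promoters below belong to 5 of the 6 members that were lower at 500 nM on both scales in both lines (NPY1R, NPY5R, RBM11, RCOR1 and KIT, while DKK2 is the sixth), to LIPI, which lies next to RBM11, and to CAV1. Capitals mark GGAA or its reverse complement TTCC, and each sequence runs 5′ to 3′ on the strand of the gene.
NPY1R (chr4:163332597-163332846, minus strand): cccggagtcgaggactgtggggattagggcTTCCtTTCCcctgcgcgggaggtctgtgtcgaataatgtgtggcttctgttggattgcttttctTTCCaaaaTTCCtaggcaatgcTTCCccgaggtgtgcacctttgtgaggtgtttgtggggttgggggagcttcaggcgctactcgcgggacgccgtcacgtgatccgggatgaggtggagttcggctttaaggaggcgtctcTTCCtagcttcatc
NPY5R (chr4:163343642-163343891, plus strand): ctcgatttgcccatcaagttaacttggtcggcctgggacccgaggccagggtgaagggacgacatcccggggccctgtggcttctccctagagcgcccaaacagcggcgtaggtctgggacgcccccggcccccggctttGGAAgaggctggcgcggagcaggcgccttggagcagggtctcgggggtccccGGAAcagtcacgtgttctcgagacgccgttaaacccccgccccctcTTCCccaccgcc
RBM11 (chr21:14215907-14216156, plus strand): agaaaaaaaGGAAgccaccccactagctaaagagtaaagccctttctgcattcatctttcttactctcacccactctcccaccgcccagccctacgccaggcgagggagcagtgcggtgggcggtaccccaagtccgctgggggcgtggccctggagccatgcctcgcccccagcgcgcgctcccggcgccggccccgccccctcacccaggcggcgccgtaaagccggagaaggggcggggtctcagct
LIPI (chr21:14210956-14211205, minus strand): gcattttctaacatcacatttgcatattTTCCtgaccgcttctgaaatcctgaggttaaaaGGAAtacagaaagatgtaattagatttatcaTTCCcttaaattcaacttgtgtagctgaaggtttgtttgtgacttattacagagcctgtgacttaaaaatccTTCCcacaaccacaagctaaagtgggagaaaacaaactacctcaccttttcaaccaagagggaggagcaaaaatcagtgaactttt
RCOR1 (chr14:102592399-102592648, plus strand): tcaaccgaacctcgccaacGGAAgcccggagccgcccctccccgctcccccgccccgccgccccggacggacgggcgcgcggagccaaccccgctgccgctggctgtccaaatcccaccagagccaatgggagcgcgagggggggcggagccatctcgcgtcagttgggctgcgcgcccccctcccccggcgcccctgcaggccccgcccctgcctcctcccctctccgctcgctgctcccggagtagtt
KIT (chr4:54657707-54657956, plus strand): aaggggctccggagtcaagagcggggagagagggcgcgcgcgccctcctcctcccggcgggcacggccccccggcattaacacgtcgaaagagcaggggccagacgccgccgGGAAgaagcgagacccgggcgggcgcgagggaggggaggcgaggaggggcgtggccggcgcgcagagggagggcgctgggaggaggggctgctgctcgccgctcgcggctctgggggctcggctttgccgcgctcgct
CAV1 (chr7:116524759-116525008, plus strand): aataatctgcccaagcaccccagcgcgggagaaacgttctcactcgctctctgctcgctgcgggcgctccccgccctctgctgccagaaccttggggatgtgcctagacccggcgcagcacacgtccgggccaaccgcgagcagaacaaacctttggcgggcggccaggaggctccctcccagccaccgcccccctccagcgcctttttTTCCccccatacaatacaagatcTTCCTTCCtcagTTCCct

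GGAA occurred 6 times in the NPY1R promoter, 3 times in that of NPY5R, 4 times each in those of LIPI and CAV1, and once each in those of RBM11, RCOR1 and KIT. Members whose promoters held more GGAA did not have lower relative effects at 500 nM in a simple ranking (Spearman rho 0.02 over 24 genes, a description). The NPY1R and NPY5R genes stand next to each other on chromosome 4, pointing away from one another with 11296 bases between their starts. LIPI and RBM11 likewise point away from each other on chromosome 21, 5202 bases apart, and STEAP1 and STEAP2 are neighbours on chromosome 7, 57271 bases apart.

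At 500 nM the signal of most effector genes fell in both lines, by about as much as the signal of all genes. In A673, 26 of the 32 tested members were lower than under DMSO and none was higher, where 82.5% of all tested genes were lower and 0.946% higher. The members' median difference was -0.74 on the log2 scale and that of all tested genes -0.73. In TC32, 19 of 32 were lower and none higher, where 62.9% and 0.946% of all genes were, with medians of -0.59 and -0.64. The shares were thus close to those of the arrays as a whole and set the effector genes apart in neither line. The members lower in both lines numbered 17 of 32, against 60.1% of all tested genes. No member rose on the deposited scale at 500 nM in either line, as limma with Benjamini-Hochberg adjustment over all 10148 genes called it, and none did at an unadjusted p under 0.05 (0 of 32 in each line).

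Relative to the array median the effector genes spread to both sides. In A673, 6 of 32 were lower and 12 higher, against 27.4% and 29.6% of all tested genes, and the median was 0.09 against 0.10. In TC32, 11 were lower and 14 higher, against 30.8% and 41.3%, with medians of 0.21 and 0.15. Lower in both lines were 6 of 32 members, against 23.7% of all tested genes: the neuropeptide Y receptors NPY1R and NPY5R, the receptor tyrosine kinase KIT, the secreted Wnt modulator DKK2, the RNA-binding splicing regulator RBM11 and the corepressor scaffold RCOR1. Called higher in both were 11, against 25.1% of all tested genes: ADGRG2, CALCB, CAV1, CCK, FCGRT, GSTM4, JAK1, PRKCB and UPP1, and also PPP1R1A and TSPAN8. The last 2 were under the filter level in TC32 with and without THZ531, so their relative calls there describe a signal near background on arrays whose median fell. Without them the count of higher members in TC32 was 12. NPY5R in TC32 was under that level at 500 nM, so its exact size there is not known. HEY1 was called in opposite directions, lower in TC32 and higher in A673. Its A673 group means of 6.10 under DMSO and 6.01 at 500 nM lay close to the filter level, on arrays whose median fell. The relative effects of the 2 lines correlated over the 32 members (Pearson r 0.75, Spearman rho 0.76), and over all 10148 genes with r 0.88 and rho 0.85. These points share arrays and array-wide scaling, and genes are not independent replicates.

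Most of these calls held when any 1 of the 12 arrays was left out. As deposited, 18 of the 26 in A673 were kept in all 12 such fits, and ADGRG2, CALCB, CAV1, FCGRT, GSTM4, JAK1, SLCO5A1 and TNNT1 were not. In TC32, 15 of 19 were kept, without IL1RAP, KDSR, UPP1 and VRK1. On the relative scale, all 6 lower calls and 8 of 12 higher calls were kept in A673, without ADGRG2, CALCB, GSTM4 and PPP1R1A. In TC32, 7 of 11 lower calls were kept, without KIT, PDGFC, PTPL1 and STEAP1, and 12 of 14 higher calls, without SLCO5A1 and UPP1. How large a share of the calls of all tested genes held in those fits is not given here.

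**Figure D1:**
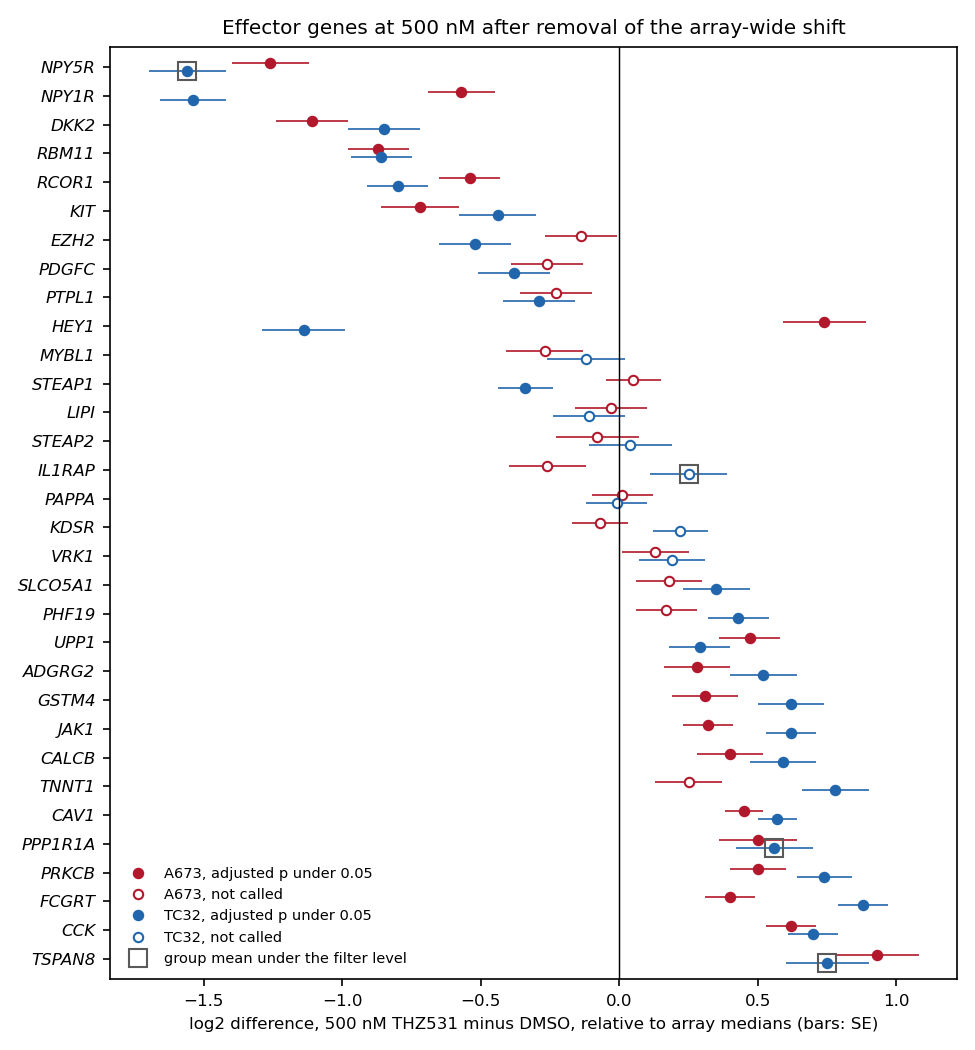
Each of the 32 tested effector genes has a point per line for the log2 difference between 500 nM THZ531 and DMSO after subtraction of array medians (x axis), with bars of 1 SE, filled points for an adjusted p under 0.05 and grey squares where a compared group mean was under the filter level. In A673 NPY5R (-1.26) stands at the low end and TSPAN8 (0.93) at the high end, and their TC32 points carry squares. HEY1 lies on opposite sides of 0 in the 2 lines, and its A673 signal lay close to the filter level.

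**Figure D2:**
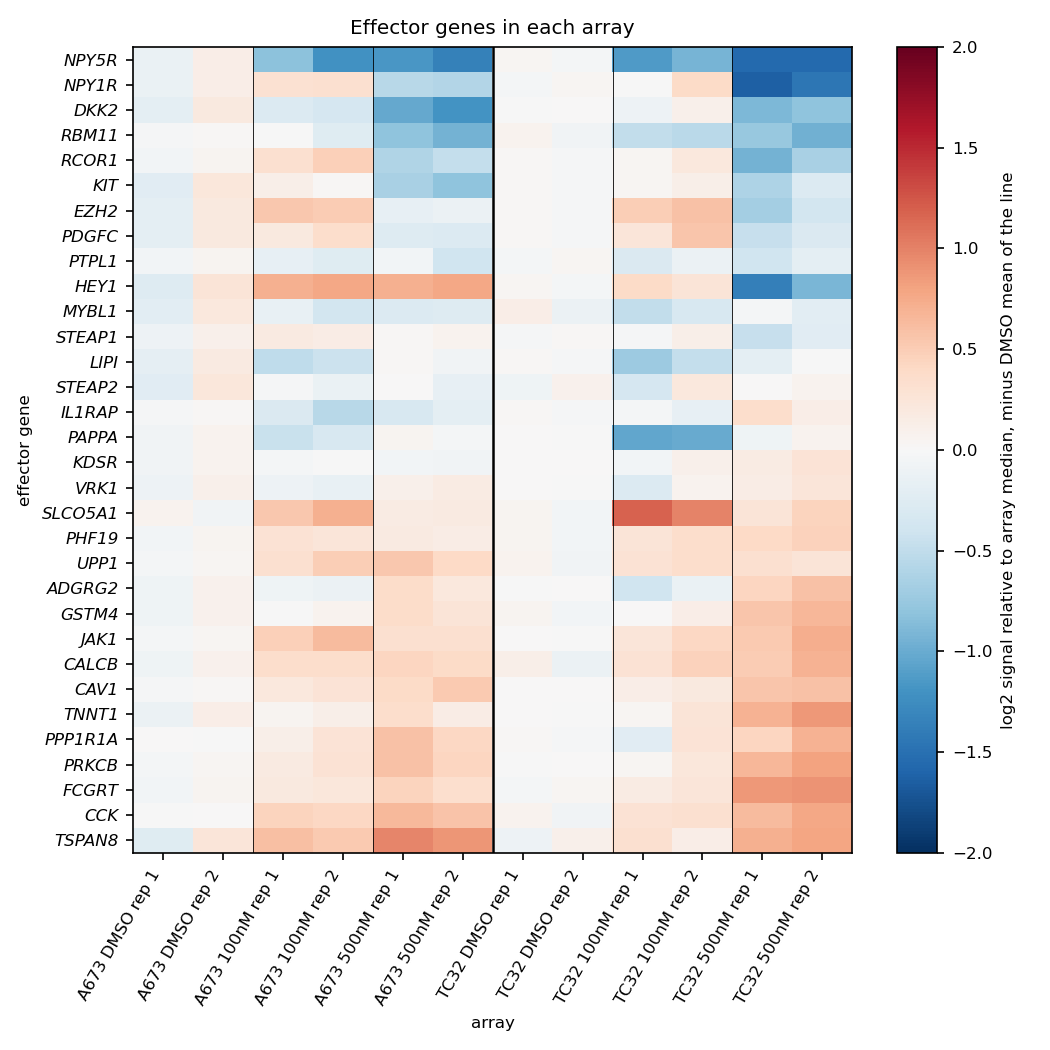
Each row is an effector gene and each column an array, coloured by log2 signal relative to the array median minus the mean of the line's DMSO arrays. NPY5R, DKK2, RBM11, NPY1R, RCOR1 and KIT are blue in all 4 arrays at 500 nM, and SLCO5A1 is at its darkest red in the 2 TC32 arrays at 100 nM.

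Among 6 tested receptors, 6 fell in A673 and 4 in TC32 at 500 nM as deposited, where 82.5% and 62.9% of all tested genes fell. Relative to the median 3 were lower and 2 higher in each line, where 27.4% and 29.6% of all genes were in A673 and 30.8% and 41.3% in TC32. Counts of so few genes were not tested against these shares. NPY1R, a G-protein-coupled receptor for neuropeptide Y, gave log2 signals of 12.15 and 12.18 in the A673 DMSO arrays, 11.89 and 11.83 at the lower dose, and 11 and 10.52 at the higher dose. The TC32 arrays read 10.36 and 10.39, then 10.22 and 10.48, then 7.98 and 8.11. The 500 nM arrays lay below all others of their line, and in TC32 the 100 nM arrays overlapped those of DMSO. Its signal at 500 nM was 2.65-fold lower in A673 (log2 difference -1.41 ± 0.19 SE, limma adjusted p = 7.48e-13) and 5.03-fold lower in TC32 (-2.33 ± 0.19, adjusted p = 2.26e-33). On the deposited scale the SE and p rest on a spread shared by genes of like signal, not on the gene's own arrays. NPY5R, another receptor for the same peptide, gave 9.40 and 9.43, then 8.0 and 7.55, then 7.65 and 7.0 in A673. Those of TC32 gave 7.78 and 7.62, then 6.42 and 6.49, then 5.38 and 5.32. Every treated array was below both DMSO arrays of its line, and in A673 the 2 dose groups overlapped. The fall at 500 nM was 4.26-fold in A673 (-2.09 ± 0.21, adjusted p = 1.79e-22) and at least 3.38-fold in TC32, where the group mean dropped under the filter level of 5.94, which was taken as the floor. NPY itself, the only other gene tested of the 4 listed for this peptide system, differed from DMSO by -0.14 in A673 and -0.15 in TC32 at 500 nM on the deposited scale, without passing the test, and was higher relative to the array median by 0.69 and 0.65.

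KIT, the receptor for stem cell factor, gave 8.53 and 8.73 under DMSO, 8.16 and 8.0 at the lower dose, and 7.39 and 6.76 at the higher dose in A673. TC32 read 10.14 and 10.02, 9.98 and 9.93, and 8.71 and 8.98. The groups did not overlap in either line. The 500 nM signal was 2.94-fold lower in A673 and 2.35-fold lower in TC32. Relative to the array median the differences were -0.72 ± 0.14 and -0.44 ± 0.14 (limma adjusted p = 0.000153 and 0.00752). In TC32 the relative call was lost without 500 nM replicate 1 (-0.28, adjusted p = 0.134). Of the 3 tested genes of KIT and PDGF signalling outside the list, 3 fell at 500 nM in A673 and 1 in TC32 on the deposited scale, where 82.5% and 62.9% of all tested genes fell. KITLG, the KIT ligand, was the one with the highest value at 100 nM, where it rose by 0.55 in A673 and 1.11 in TC32.

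FCGRT, the neonatal Fc receptor that recycles immunoglobulin G and albumin, moved the other way against the array median. Its signals were 11.83 and 11.70, 11.37 and 11.33, and 11.62 and 11.04 in A673 at DMSO, 100 nM and 500 nM. In TC32 they were 11.98 and 11.98, 12 and 11.95, and 12.08 and 12.06. Both TC32 arrays at 500 nM lay above those of DMSO, with a deposited difference of 0.09 ± 0.17 that did not pass the test. The relative difference was 0.40 ± 0.09 in A673 and 0.88 ± 0.09 in TC32 (limma adjusted p = 0.00062 and 1.11e-08). After quantile normalization FCGRT was at 0.09 in A673 (adjusted p = 0.177), where the call was lost, and at 0.25 in TC32, where it was kept. ADGRG2, an adhesion G-protein-coupled receptor, was higher relative to the median by 0.28 ± 0.12 in A673, a call kept in only 5 of the 12 fits that left out an array, and by 0.52 ± 0.12 in TC32. IL1RAP, the co-receptor of interleukin-1 family receptors, fell by 1.09 in A673 as deposited. In TC32 it was called lower too, but its group mean of 6.05 under DMSO went to 5.51, under the filter level, which gives a fall of at least 1.08-fold. It passed the relative test in neither line.

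**Figure D3:**
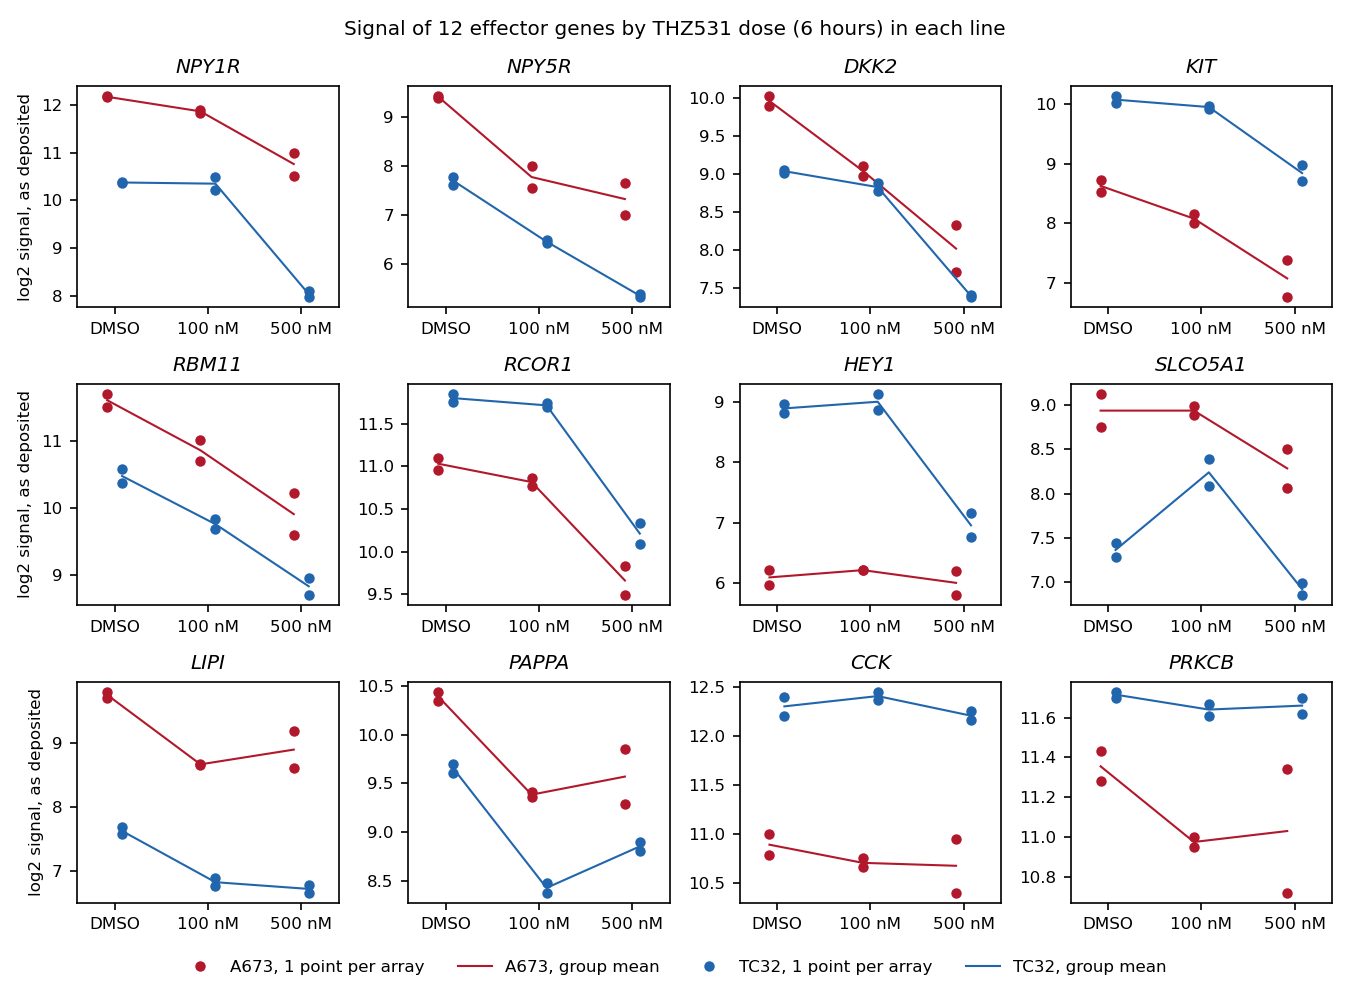
Deposited log2 signal (y axis) of 12 effector genes is plotted against treatment (x axis), with 1 point per array and a line through the group means, A673 in red and TC32 in blue. NPY1R falls from 10.36 and 10.39 under DMSO to 7.98 and 8.11 at 500 nM in TC32 with little change at 100 nM, whereas NPY5R, LIPI and PAPPA are lower at 100 nM in both lines.

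Of 5 tested secreted factors, 4 fell in A673 and 3 in TC32 at 500 nM as deposited, against 82.5% and 62.9% of all genes. DKK2, a Dickkopf protein that modulates Wnt signalling, gave 9.90 and 10.03 under DMSO, 9.11 and 8.98 at the lower dose, and 8.33 and 7.71 at the higher dose in A673. In TC32 it gave 9.06 and 9.02, 8.78 and 8.88, and 7.38 and 7.41. Each dose group lay below the one before it in both lines. At 500 nM the signal was 3.85-fold lower in A673 and 3.13-fold lower in TC32, and the relative differences were -1.11 ± 0.13 and -0.85 ± 0.13 (limma adjusted p = 1.82e-07 and 5.31e-06). Of 5 tested Wnt antagonists and their receptors, 3 fell in A673 and 5 in TC32 as deposited (82.5% and 62.9% of all genes), with the co-receptor LRP6 lowest at -1.74 and -1.20. PDGFC, a growth factor of the PDGF family, was 2.13-fold lower in A673 and 2.25-fold lower in TC32. Its relative difference passed the test in TC32 (-0.38 ± 0.13, adjusted p = 0.0164), a call kept in 10 of the 12 fits that left out an array, and was -0.26 ± 0.13 in A673. After quantile normalization PDGFC was at -0.13 in TC32 (adjusted p = 0.203) and -0.19 in A673 (adjusted p = 0.0744), so the call of its fall was lost in both lines.

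CCK, the peptide hormone cholecystokinin, gave 11 and 10.78, 10.75 and 10.66, and 10.95 and 10.40 in A673, and 12.40 and 12.20, 12.45 and 12.36, and 12.16 and 12.25 in TC32. The 500 nM and DMSO arrays overlapped in both lines. Against the falling medians it was higher by 0.62 ± 0.09 and 0.70 ± 0.09 (limma adjusted p = 6.35e-06 and 8.16e-07). After quantile normalization CCK kept the call in A673 (0.50) and lost it in TC32 (0.09, adjusted p = 0.226). CALCB, the beta form of calcitonin gene-related peptide, gave 10.40 and 10.32, 10.11 and 10.05, and 10.19 and 9.67 in A673. The TC32 arrays read 6.97 and 6.66, 6.96 and 7.0, and 6.55 and 6.68, and its arrays overlapped there between 500 nM and DMSO. Its relative difference was 0.40 ± 0.12 in A673 and 0.59 ± 0.12 in TC32. Its deposited fall in A673 (-0.44 ± 0.21, adjusted p = 0.0443) was kept in only 1 of the 12 fits that left out an array. The relative call in A673 was lost without 500 nM replicate 1 (0.37, adjusted p = 0.0597) and without DMSO replicate 1 (0.31, adjusted p = 0.0652). CHGA, a granin of secretory vesicles, was at 4.49 to 5.38 in the 12 arrays, under the filter level in every group.

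PAPPA, a metalloproteinase that cleaves a binding protein of insulin-like growth factors, was lowest at the lower dose. Its A673 signals were 10.44 and 10.34 under DMSO, 9.36 and 9.41 at the lower dose, and 9.85 and 9.29 at the higher dose. Those of TC32 were 9.70 and 9.61, 8.48 and 8.38, and 8.81 and 8.90. All treated arrays were below DMSO in both lines, and in TC32 both 500 nM arrays lay above both 100 nM arrays. Relative to the median it was lower at 100 nM by -0.38 ± 0.11 in A673 and -1.02 ± 0.11 in TC32 (limma adjusted p = 0.00854 and 1.34e-07), while at 500 nM the differences were 0.01 ± 0.11 and -0.01 ± 0.11. The A673 call at 100 nM was lost without 100 nM replicate 1 (-0.32, adjusted p = 0.0997) and without DMSO replicate 2 (-0.31, adjusted p = 0.0594).

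Of the regulators of transcription and chromatin, 4 of 5 tested fell at 500 nM in each line as deposited, against 82.5% of all genes in A673 and 62.9% in TC32. RCOR1, the scaffold of the CoREST complex that holds the histone demethylase LSD1, gave 11.10 and 10.96 under DMSO, 10.77 and 10.86 at the lower dose, and 9.83 and 9.49 at the higher dose in A673. Those of TC32 gave 11.85 and 11.75, 11.69 and 11.74, and 10.09 and 10.33. The 500 nM arrays lay below all others of their line, and in both lines the 100 nM arrays were each below both DMSO arrays. RCOR1 was 2.58-fold lower in A673 and 3.02-fold lower in TC32, and by -0.54 ± 0.11 and -0.80 ± 0.11 relative to the median (limma adjusted p = 0.000372 and 1.97e-06). Of 8 other tested CoREST genes, 7 fell in A673 and 5 in TC32 as deposited (82.5% and 62.9% of all genes). After median subtraction 3 were lower and 2 higher in A673 (27.4% and 29.6% of all genes), 3 and 3 in TC32 (30.8% and 41.3%), with PHF21A lowest at -1.80 and -1.51.

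HEY1, a Notch-responsive transcriptional repressor, gave 8.96 and 8.82 under DMSO, 9.13 and 8.87 at the lower dose, and 6.76 and 7.16 at the higher dose in TC32, a 3.80-fold fall at 500 nM (-1.93 ± 0.21, limma adjusted p = 2.69e-19). In A673 it gave 5.97 and 6.23, 6.22 and 6.22, and 6.21 and 5.81. These signals overlapped between 500 nM and DMSO and lay close to the filter level of 5.94. The higher relative value in A673 at 500 nM (0.74 ± 0.15, adjusted p = 0.00032) thus came with a deposited difference of -0.09 ± 0.21.

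EZH2, the histone methyltransferase of Polycomb repressive complex 2, fell by 0.98 in A673 and by 1.31 in TC32 at 500 nM as deposited. Relative to the median it was lower in TC32 (-0.52 ± 0.13, limma adjusted p = 0.00134) and at -0.14 ± 0.13 in A673. PHF19, which recruits that complex, fell by 0.67 in A673 as deposited and was higher by 0.43 ± 0.11 relative to the median in TC32. Of the 8 other tested genes of the complex, 8 fell in A673 and 6 in TC32 as deposited (82.5% and 62.9% of all genes), and AEBP2 was lowest at -2.84 and -2.85. After median subtraction 5 were lower and 2 higher in A673 (27.4% and 29.6% of all genes), and 4 and 2 in TC32 (30.8% and 41.3%). MYBL1, a MYB family factor, fell by 1.10 and 0.91 as deposited and passed the relative test in neither line at 500 nM. TERT, the catalytic subunit of telomerase, was at 4.40 to 5.13 in the 12 arrays and under the filter level in every group. Of 9 tested telomerase and shelterin genes outside the list, 8 fell in A673 and 7 in TC32 as deposited. GLI1 has no value, and of 6 tested Hedgehog genes 5 fell in each line at 500 nM, both lists standing against 82.5% and 62.9% of all genes, with GLI2 lowest at -3.62 in A673 and -3.04 in TC32.

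Of 5 tested kinases and phosphatase regulators, 3 were higher relative to the array median at 500 nM in each line, none was lower in A673 and 1 was lower in TC32. Of all tested genes 29.6% were higher and 27.4% lower in A673, and 41.3% and 30.8% in TC32, where 1 of the 3, PPP1R1A, was under the filter level. PRKCB, protein kinase C beta, gave 11.43 and 11.28, 10.95 and 11, and 11.34 and 10.72 in A673, and 11.73 and 11.70, 11.61 and 11.67, and 11.62 and 11.70 in TC32. In TC32 the 100 nM arrays lay below both DMSO arrays, and the 2 dose groups overlapped. The deposited difference at 500 nM was -0.33 ± 0.17 in A673 and -0.06 ± 0.17 in TC32, neither past the test, and the relative one was 0.50 ± 0.10 and 0.74 ± 0.10 (limma adjusted p = 0.000193 and 1.14e-06). JAK1, a kinase of cytokine receptors, gave 12.01 and 11.85, 11.82 and 11.90, and 11.65 and 11.19 in A673, and 12.12 and 12.03, 12.17 and 12.22, and 11.83 and 11.97 in TC32. Its 500 nM arrays lay below both DMSO arrays in both lines. It fell in A673 as deposited (-0.51 ± 0.16, adjusted p = 0.00335), a call lost without DMSO replicate 1 (-0.43, adjusted p = 0.0692), and was higher relative to the median by 0.32 ± 0.09 and 0.62 ± 0.09. After quantile normalization both relative calls of JAK1 were lost (adjusted p = 0.692 in A673 and 0.964 in TC32). Of 6 other tested JAK-STAT genes, 5 fell in A673 and 3 in TC32 as deposited (82.5% and 62.9% of all genes).

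PPP1R1A, an inhibitor of protein phosphatase 1, was above the filter level in A673 only, with signals of 9.94 and 9.67, 9.34 and 9.43, and 9.78 and 9.16. In TC32 they were 5.97 and 5.87, 5.54 and 5.91, and 5.58 and 5.79, with every group mean under the filter level. Its relative difference at 500 nM was 0.50 ± 0.14 in A673 (limma adjusted p = 0.00436), lost without 500 nM replicate 1 (0.43, adjusted p = 0.0584), and 0.56 ± 0.14 in TC32, where the signal was under that level throughout. VRK1, a chromatin-associated kinase, fell by 0.70 in A673 and by 0.60 in TC32 as deposited. PTPL1, a tyrosine phosphatase, fell by 1.07 and 1.09, and its relative difference passed the test in TC32 (-0.29 ± 0.13), a call kept in 7 of the 12 fits that left out an array.

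Of 5 tested membrane and transport proteins, 4 fell in A673 and 2 in TC32 at 500 nM as deposited, where 82.5% and 62.9% of all genes fell. STEAP1, a six-transmembrane protein of the metalloreductase family that is used as a marker of Ewing sarcoma, gave 12.55 and 12.51, 12.13 and 12.04, and 11.95 and 11.53 in A673, and 11.59 and 11.60, 11.42 and 11.44, and 10.38 and 10.54 in TC32. The groups descended without overlap in both lines. Its signal at 500 nM was 1.72-fold lower in A673 and 2.19-fold lower in TC32. Its relative difference was 0.05 ± 0.10 in A673 and -0.34 ± 0.10 in TC32 (limma adjusted p = 0.0045), a call lost without TC32 500 nM replicate 1 (-0.23, adjusted p = 0.0895). STEAP2, its neighbour and family member, was 1.88-fold lower in A673 and 1.69-fold lower in TC32, with relative differences of -0.08 and 0.04. STEAP1 and GSTM4 each have a further entry annotated to several genes, so signal shared with near-identical copies is uncertain for both.

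CAV1, the coat protein of caveolae, gave 14.06 and 13.87, 13.59 and 13.59, and 13.76 and 13.42 in A673, and 13.49 and 13.42, 13.44 and 13.38, and 13.25 and 13.21 in TC32. In A673 both DMSO arrays lay above all treated ones and the doses overlapped, and in TC32 both 500 nM arrays lay below all others. It was 1.30-fold lower in A673 at 500 nM as deposited, a call lost without DMSO replicate 1 (-0.29, limma adjusted p = 0.115). It was higher relative to the median by 0.45 ± 0.07 and 0.57 ± 0.07. After quantile normalization those 2 differences became -0.11 and -0.17, both past the test, so the direction of CAV1 against the rest of the array depended on the scaling. TSPAN8, a tetraspanin, gave 7.96 and 8.18, 8.09 and 7.94, and 8.44 and 7.89 in A673, with 500 nM and DMSO overlapping. In TC32 its 6 arrays were at 4.34 to 4.65, under the filter level. The relative difference at 500 nM was 0.93 ± 0.15 in A673 (adjusted p = 2.14e-05) and 0.75 ± 0.15 in TC32, where the gene was under the filter level in all groups. After quantile normalization the TC32 call of TSPAN8 was lost (0.17, adjusted p = 0.256).

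SLCO5A1, of the organic anion transporter family, was the only member that rose as deposited in any comparison with DMSO. TC32 read 7.44 and 7.28 under DMSO, 8.39 and 8.09 at the lower dose, and 6.85 and 6.98 at the higher dose. Both 100 nM arrays lay above, and both 500 nM arrays below, those of DMSO. The rise at 100 nM was 0.88 ± 0.21 (limma adjusted p = 0.0002), a call lost without 100 nM replicate 1 (0.73, adjusted p = 0.0512), and 1.09 ± 0.12 relative to the median (adjusted p = 1.38e-07). In A673 it gave 9.13 and 8.75, 8.89 and 8.99, and 8.51 and 8.06, so its 100 nM arrays fell between the DMSO arrays, and its relative difference at 100 nM was 0.62 ± 0.12.

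RBM11, an RNA-binding protein that regulates splicing, fell at each dose in both lines as deposited. Relative to the array median, its difference at 100 nM passed the test in TC32 and not in A673. RBM11 gave 11.71 and 11.52 under DMSO, 11.02 and 10.71 at the lower dose, and 10.22 and 9.60 at the higher dose in A673. In TC32 it gave 10.58 and 10.38, 9.84 and 9.68, and 8.96 and 8.70. The groups did not overlap. At 500 nM it was 3.26-fold lower in A673 and 3.14-fold lower in TC32, and by -0.87 ± 0.11 and -0.86 ± 0.11 relative to the median (limma adjusted p = 1.14e-06 and 9.98e-07). Its deposited call at 100 nM was lost in A673 without 100 nM replicate 2 (-0.59, adjusted p = 0.0662) and in TC32 without 100 nM replicate 2 (-0.64, adjusted p = 0.0706) or DMSO replicate 1 (-0.62, adjusted p = 0.0913). LIPI, the lipase gene next to it, was 1.81-fold lower in A673 and 1.87-fold lower in TC32 at 500 nM, but its relative differences were -0.03 ± 0.13 and -0.11 ± 0.13. TNNT1, slow skeletal troponin T, fell by 0.58 in A673 as deposited and was higher by 0.78 ± 0.12 relative to the median in TC32.

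None of 4 tested enzymes (LIPI, KDSR, GSTM4 and UPP1) was lower relative to the array median at 500 nM, and 2 were higher in each line. Of all tested genes 27.4% were lower and 29.6% higher in A673, and 30.8% and 41.3% in TC32. GSTM4, a glutathione S-transferase, was higher by 0.31 ± 0.12 in A673 and by 0.62 ± 0.12 in TC32 relative to the median. UPP1, uridine phosphorylase, was higher by 0.47 ± 0.11 and 0.29 ± 0.11. The relative calls were kept in 10 of the 12 fits that left out an array for GSTM4 in A673 and in 9 of 12 for UPP1 in TC32. KDSR, which reduces ketosphinganine in ceramide synthesis, fell by 0.90 in A673 and by 0.57 in TC32 as deposited and passed the relative test in neither line. LOXHD1, a gene known from hearing, was at 5.38 to 6.37 over the 12 arrays, with 4 of its 6 group means under the filter level.

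At 100 nM fewer members were called lower than at 500 nM as deposited, and NPY5R had the lowest difference from DMSO at both doses in both lines on both scales. In TC32 at 500 nM that rank rests on a signal under the filter level. The fall of NPY5R there was at least 3.38-fold and that of NPY1R was 5.03-fold, so which fell further is not known. In A673, 19 of 32 fell and none rose as deposited (limma, also 0 risen at an unadjusted p under 0.05), against 58.7% and 1.31% of all tested genes, with a median of -0.43 against -0.52. In TC32, 5 fell and 1 rose, against 20.9% and 5.56%, with a median of -0.10 against -0.07. Relative to the array median, 4 were lower and 12 higher in A673 (17.1% and 24.4% of all genes) and 5 lower and 8 higher in TC32 (21.2% and 30.6%). NPY5R, LIPI and PAPPA were lower in both lines on both scales, 3 of 32 members, against 14% of all tested genes. NPY5R differed from DMSO by -1.64 ± 0.21 in A673 and -1.24 ± 0.21 in TC32 as deposited, and by -1.02 and -1.04 relative to the median. LIPI differed by -1.09 ± 0.21 and -0.80 ± 0.21 as deposited (limma adjusted p = 1.47e-06 and 0.000847). Its relative call in A673 (-0.47) was lost without 100 nM replicate 1 (-0.43, adjusted p = 0.0501) and without DMSO replicate 2 (-0.29, adjusted p = 0.0941). Higher relative to the median in both lines were CALCB, CCK, EZH2, JAK1, PHF19, SLCO5A1 and UPP1, 7 of 32 against 18.4% of all genes.

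The counts at 100 nM moved with single arrays, and the shares of all tested genes in those fits are not given here. In A673 the 19 deposited calls became 12 without replicate 1 and 10 without 100 nM replicate 2, and 11 without DMSO replicate 1. The 16 relative calls there became 3 lower and 6 higher without 100 nM replicate 2. In TC32 the 6 deposited calls became 10 without either A673 500 nM array, and the relative ones became 6 lower and 3 higher without 100 nM replicate 2 and 5 and 2 without DMSO replicate 2. NPY5R kept its lower call at 100 nM in both lines and on both scales in all 12 of the fits that left out an array.

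From 100 nM to 500 nM, 8 of 32 members fell in both lines on both scales, against 21.6% of all tested genes, and 5 gained against the array median in both, against 7.74%. The comparisons of 500 nM with 100 nM share the treated arrays with the comparisons above. In A673, 9 members were lower at 500 nM than at 100 nM and none higher as deposited, against 26.7% and 0.897% of all genes, and in TC32 15 and none, against 55.5% and 1.09%. At an unadjusted limma p under 0.05, 0 were higher in A673 and 1 in TC32. Relative to the median, 8 were lower and 5 higher in A673 (25.1% and 10.4%) and 11 lower and 14 higher in TC32 (29.8% and 29.1%). Of those 14, IL1RAP, PPP1R1A and TSPAN8 were under the filter level at both doses, which leaves 11. DKK2, EZH2, KIT, NPY1R, PDGFC, RBM11, RCOR1 and SLCO5A1 were lower at the higher dose in both lines on both scales. NPY1R had the largest such step among the members in TC32, -1.72 ± 0.12 relative to the median (limma adjusted p = 1.18e-10), and RCOR1 in A673, -0.94 ± 0.11 (adjusted p = 5.53e-07). EZH2 was higher than under DMSO relative to the median at 100 nM and then stepped down by -0.67 ± 0.13 in A673 and -1.06 ± 0.13 in TC32. Higher at 500 nM than at 100 nM relative to the median in both lines were ADGRG2, CAV1, LIPI, PAPPA and PRKCB, with PAPPA at 0.39 ± 0.11 in A673 and 1.01 ± 0.11 in TC32.

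Here too single arrays counted, again without the shares of all tested genes in those fits. Of the deposited calls in A673, 9 became 22 without 500 nM replicate 1, and 8 lower and 7 higher without replicate 2. The relative calls there became 8 lower and none higher without 100 nM replicate 1, so none of the 5 higher calls, CAV1, PAPPA, LIPI, ADGRG2 and PRKCB, held throughout. In TC32 the relative calls became 10 lower and 9 higher without 100 nM replicate 1. DKK2, EZH2, NPY1R and RCOR1 were called lower in both lines on both scales in all 12 fits.

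**Figure D4:**
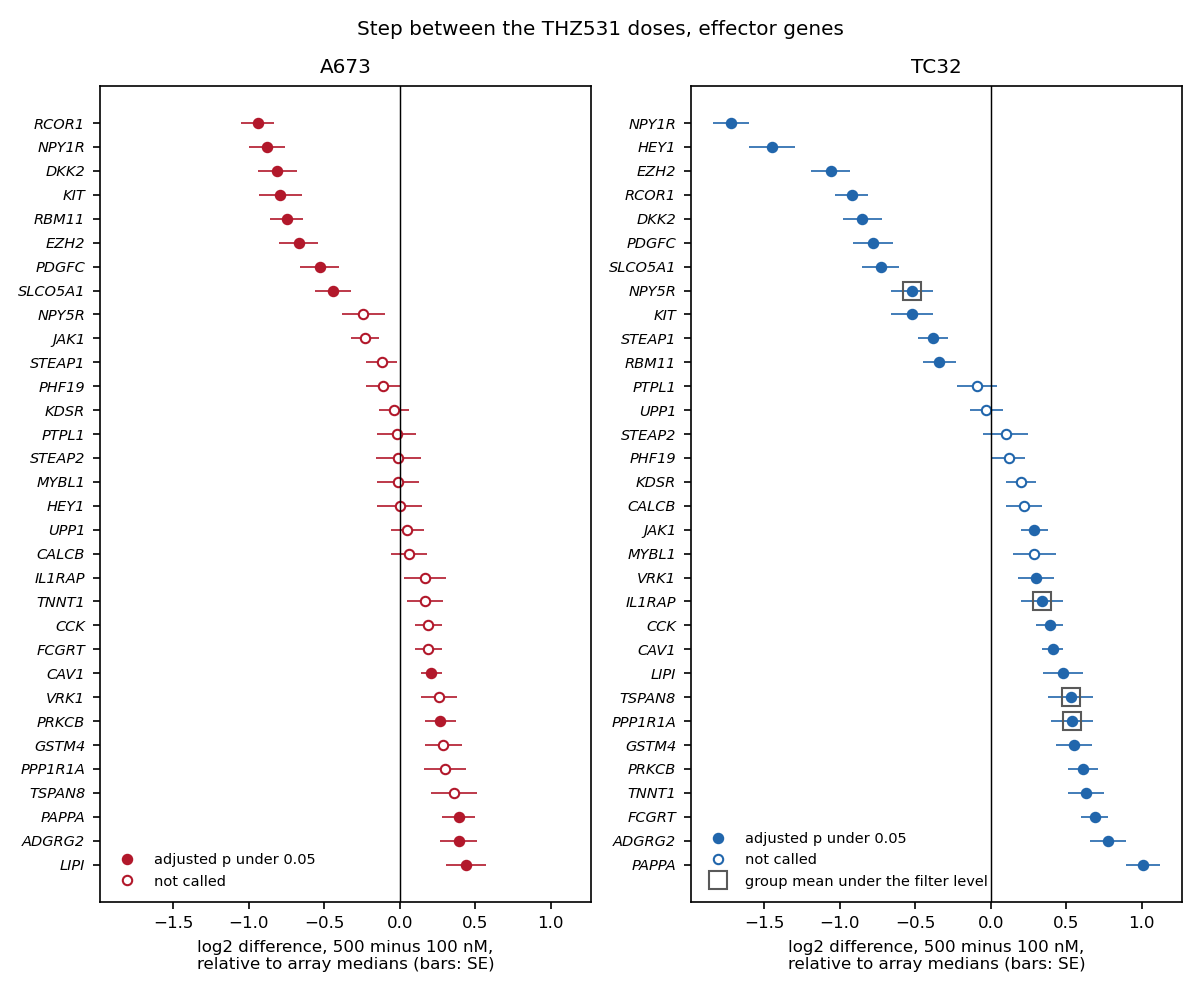
Points give the log2 difference between 500 nM and 100 nM THZ531 relative to array medians (x axis) for the 32 tested effector genes in A673 (left) and TC32 (right), with bars of 1 SE, filled points for an adjusted p under 0.05 and grey squares where a compared group mean was under the filter level. RCOR1 (-0.94) leads the falls in A673 and NPY1R (-1.72) in TC32, and PAPPA (1.01) has the highest value in TC32.

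NPY1R fell further in TC32 than in A673 at 500 nM, and FCGRT gained more against the array median in TC32. HEY1 fell in TC32, while in A673 it lay near the filter level already under DMSO, which leaves little room to see a fall. In the test of the difference between the 500 nM effects, TC32 minus A673, 2 of 32 were lower and none higher as deposited (2 higher at an unadjusted limma p under 0.05), against 1.28% and 0.552% of all genes, and 2 lower and 1 higher relative to the median, against 6.75% and 3.04%. HEY1 differed by -1.84 ± 0.30 as deposited and -1.88 ± 0.22 relative to the median (limma adjusted p = 4.89e-07 and 5.97e-06) and kept both calls when any array was left out. Its signal in A673 was close to the filter level at every dose. NPY1R fell further in TC32, by -0.93 ± 0.27 on the deposited scale (adjusted p = 0.0327) and -0.96 ± 0.18 on the relative one (adjusted p = 0.000958). Its relative call held without any single array, whereas the deposited one was lost in 10 of the 12 such fits, with adjusted p of 0.0872 to 0.348 and differences of -0.99 to -0.86, and was kept without either A673 500 nM array. FCGRT was the member that was higher in TC32, by 0.49 ± 0.12 relative to the median (adjusted p = 0.0135), and lost the call without A673 500 nM replicate 2 (0.43, adjusted p = 0.0734) or TC32 DMSO replicate 1 (0.45, adjusted p = 0.0968), without a variance trend (0.49, adjusted p = 0.0513) and after quantile normalization (0.16, adjusted p = 0.169).

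The deposited count of 2 lower members became 2 lower and 13 higher without replicate 1, and 4 lower without replicate 2, of the A673 500 nM arrays, which were offset from each other. Without any 1 of the other 10 arrays it was 1, HEY1. The relative count became 4 lower and 1 higher without A673 DMSO replicate 2. At 100 nM limma called no member as different between the lines as deposited (3 were higher in TC32 at an unadjusted p under 0.05), where 0.0887% of all genes were lower and 2.22% higher. However, 18 were higher without either A673 500 nM array and 1 without replicate 2 of A673 DMSO. Shares of all tested genes in the fits that left out an array are not given here. Relative to the median, PAPPA alone differed (-0.64 ± 0.16, limma adjusted p = 0.0277), against 1.76% of all genes lower and 0.857% higher. PAPPA lost that call without either A673 100 nM array (-0.70 and -0.58), replicate 1 of A673 DMSO (-0.57), replicate 1 of TC32 100 nM (-0.63), or either TC32 DMSO array (-0.63 and -0.65), with adjusted p of 0.0717 to 0.164, and without replicate 2 of A673 DMSO 2 members were called.

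Before treatment the lines already differed in most effector genes. Under DMSO, 20 of 32 members were higher and 8 lower in A673 than in TC32 as deposited, against 77.4% and 5.13% of all tested genes, and the members' median difference was 0.84 against 0.81. Relative to the array median, 14 were higher and 13 lower, against 33.9% and 21.4%. PPP1R1A and TSPAN8 were under the filter level in TC32, so their differences are bounds: as deposited, A673 was at least 14.5-fold higher for PPP1R1A (9.80 against 5.92) and at least 4.37-fold higher for TSPAN8 (8.07 against 4.48). Among members above that level in both lines, CALCB (2.86 ± 0.12), UPP1 (1.93 ± 0.11) and LIPI (1.44 ± 0.13) had the largest differences in favour of A673 relative to the median. HEY1 (-3.48 ± 0.15), KIT (-2.14 ± 0.14) and CCK (-2.10 ± 0.09) had the largest in favour of TC32. These 8 genes kept their direction and call in all 12 fits that left out an array and on both scales. Both neuropeptide Y receptors were higher in A673, NPY1R by 1.10 ± 0.12 and NPY5R by 1.02 ± 0.14. The relative split became 11 higher and 13 lower without A673 DMSO replicate 2. With 1 cell line on each side, the differences describe these lines.

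**Figure D5:**
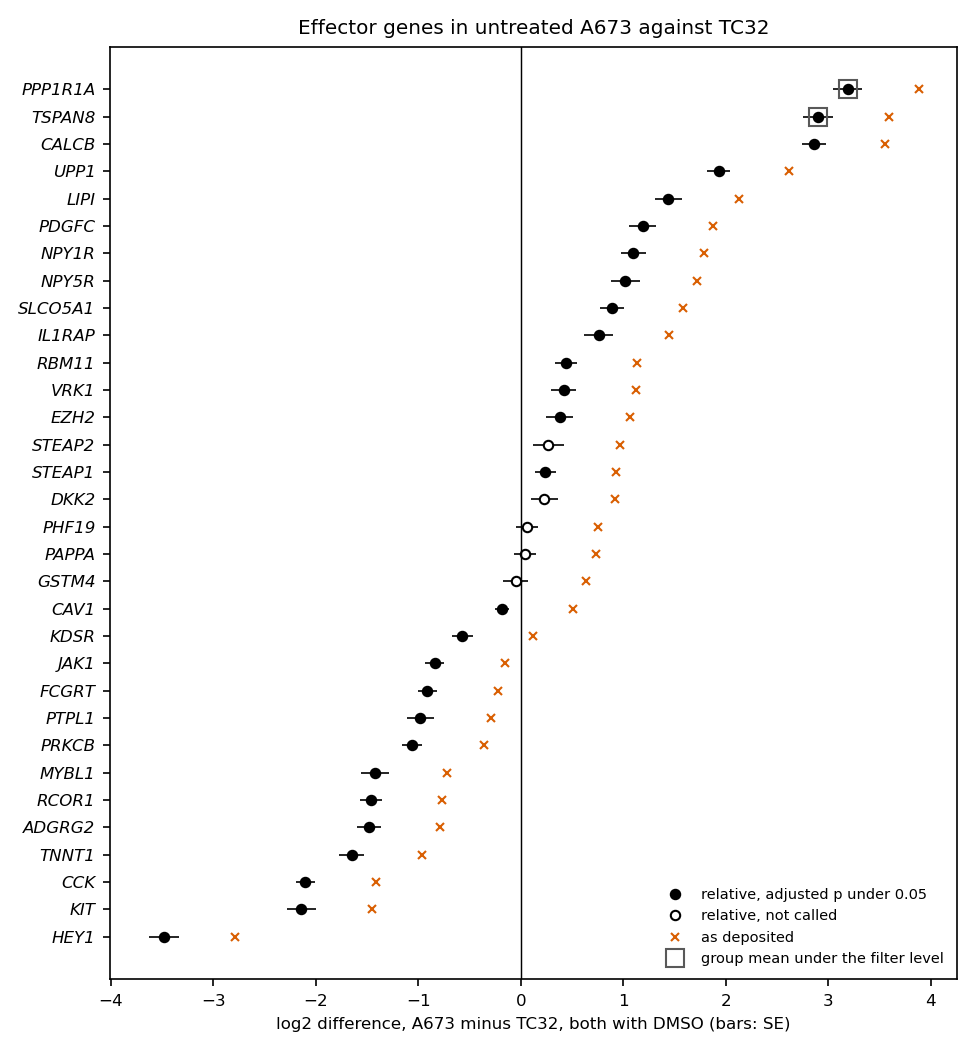
For each tested effector gene the log2 difference A673 minus TC32 under DMSO is shown relative to array medians (black points, bars of 1 SE, filled for an adjusted p under 0.05) and as deposited (orange crosses), with grey squares where a line's mean was under the filter level. The crosses lie to the right of the points for every gene, HEY1 (-3.48) marks the low end, and the 2 points at the top, PPP1R1A and TSPAN8, carry squares.

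The effector genes can be set beside the other genes tied to the fusion. Of 14 tested genes reported as repressed by EWS/FLI, 1 was lower and 10 were higher than DMSO at 500 nM relative to the median in A673, with a median of 0.54, and 2 and 9 in TC32, with a median of 0.40. Of all tested genes 27.4% were lower and 29.6% higher in A673, with a median of 0.10, and 30.8% and 41.3% in TC32, with a median of 0.15. Of 10 tested core transcription factors of Ewing sarcoma, 5 were lower and 3 higher in A673 (median -0.28), and 5 and 2 in TC32 (median -0.17). The effector genes lay between these, with medians of 0.09 and 0.21. As deposited, 5 of the 14 repressed genes were lower and 4 higher in A673 (median -0.29), and 6 and 3 in TC32 (median -0.40). Of the 10 core factors, 8 were lower and 0 higher in each line (medians -1.11 and -0.96). Of all tested genes 82.5% were lower and 0.946% higher as deposited in A673, and 62.9% and 0.946% in TC32. No test of the difference between the lists was made, and all 3 lists were drawn up with earlier results of these data known. Longer genes had lower relative effects by a small margin over all genes (Spearman rho -0.23 in A673 and -0.11 in TC32 over 10144 genes), and over the 32 members rho was -0.26 and -0.03, which is a description over few genes.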

How the data were processed

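Gene expression was measured on 12 arrays, 2 for each of 6 groups, and the labels call the 2 arrays of a group biological replicates. The authors deposited a table of log2 values with 49395 entries. The entries of a kept gene repeat 1 gene-level value, save for 10 genes with several sets of values. For those the set with the highest mean was used, and no usable member was among them. The submitters' processing notes name MAS5, hg19 and GRCh37 with no role, and the normalization is not given in the sources used here. Entries with at most 2 decimals, entries of several genes and 116 genes that share values with another symbol were left out. The number of arrays limits the precision.

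Genes with a mean at or above the 40th percentile were tested with limma 3.58.1 (lmFit, contrasts.fit, eBayes with a trend on the mean signal) in R 4.3.3, with 1 mean per group over all 12 arrays, 2-sided, with Benjamini-Hochberg adjustment over 10148 genes and a threshold of 0.05. Values with ± are the difference and its SE from that fit. Median residual SD was 0.189 as deposited and 0.118 relative to array medians. As deposited, eBayes gave a gene's own spread no weight (prior degrees of freedom Inf), so SE and p came from the trend over all genes. Small p-values on that scale thus do not measure how closely the 2 arrays of a group matched for that gene. The fit was tested on simulated data built on the median-centred DMSO means of each line, with changes planted in the A673 500 nM arrays. It recovered 100 of 100 genes planted at a log2 change of 1 and 100 of 100 at 2, with 6 false calls. Every gene had the same noise, the median residual SD of 0.118 of the relative scale, and the simulation held no offsets between arrays. It therefore does not speak for the deposited scale or for genes with a larger spread.

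Alternatives were the other scaling, quantile normalization, no filter, a filter at the 60th percentile, no variance trend, only the groups compared, the replicate number as a block, and leaving out each array. Apart from the other scaling, counts of members under these alternatives come without the shares over all tested genes. Values of every array are given for the 5 lowest and 5 highest members by relative 500 nM effect averaged over the lines, members called in a difference between the lines, the 5 with the largest difference under DMSO, and the 5 with the highest mean signal. LIPI, PDGFC, EZH2, SLCO5A1 and others singled out beyond that rule were chosen after their values were seen. Members, lists and tests were chosen with earlier results of these data known. Gene models and promoters came from RefSeq (GRCh38.p14), where 9 members had no promoter entry: GLI1, VRK1, PPP1R1A, DKK2, SLCO5A1, CALCB, PDGFC, HEY1 and MYBL1.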

Additional observations from a re-analysis of the deposited data

Results flagged for a closer look

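Some members had an effect of THZ531 that differed between the lines in the limma test of that difference. HEY1 at 500 nM differed by -1.84 as deposited and -1.88 relative to array medians, TC32 minus A673, and its signal in A673 lay near the filter level at every dose. NPY1R at 500 nM differed by -0.93 as deposited and -0.96 relative to array medians. FCGRT differed by 0.49 at 500 nM relative to array medians. PAPPA differed by -0.64 at 100 nM relative to array medians. No group had enough arrays for a test of single outlying arrays.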

How the results depend on the processing

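The direction of the members' counts depended on the scaling, since array medians fell with dose in both lines. With the other scaling in place of each, the deposited 500 nM counts of 26 lower (A673) and 19 lower (TC32) became 18 (6 lower, 12 higher) and 25 (11 and 14), the 100 nM counts of 19 and 6 became 16 (4 and 12) and 13 (5 and 8), the dose step in TC32 went from 15 to 25, the line difference at 100 nM from 0 to 1, and the reverse replacements gave 26, 19, 19, 6, 15 and 0.

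Quantile normalization gave 22 (9 lower, 13 higher) and 23 (11 and 12) at 500 nM in A673 and TC32, 19 (10 and 9) and 15 (9 and 6) at 100 nM, 21 (9 and 12) and 22 (10 and 12) between the doses, and 8 (7 and 1) and 2 (2 and 0) for the line differences at 500 and 100 nM. With only the groups compared, the deposited counts were 14 (A673, 500 nM), 11 (TC32, 100 nM), 3 and 23 (dose steps), 1 and 18 (line differences), and the relative dose step in A673 was 19 (9 and 10). Without the variance trend the deposited line difference at 500 nM was 1. Without the filter the relative difference under DMSO was 27 (14 lower, 13 higher). Shares over all tested genes are not given for these settings or for the fits that left out an array. Whether the members or all genes moved thus cannot be told from these counts. Where the counts moved, the cause was not tested.

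Over genes, the deviations of same-numbered arrays correlated between groups of a line at -0.156 to 0.238. Such a correlation does not see offsets of whole arrays, so whether same-numbered arrays shared a batch cannot be told from it. The replicate block turned the deposited line difference at 100 nM from 0 to 2 and moved no other count of members by over 1.5 times.

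Single genes turned direction as follows. From lower in A673 at 500 nM as deposited, ADGRG2 became 0.28 relative to the median and 0.53 after quantile normalization, CALCB 0.40 and 0.42, GSTM4 0.31 and 0.52. With the median alone, CAV1 became 0.45, FCGRT 0.40 and JAK1 0.32. With quantile normalization alone, PHF19 became 0.25, SLCO5A1 0.45, TNNT1 0.47 and VRK1 0.26. In TC32 at 500 nM, UPP1 became 0.29 and 0.50, LIPI 0.23 and VRK1 0.36 (both quantile), and PHF19 0.20 between the doses. CAV1 relative to the median became -0.11 (A673, 500 nM), -0.17 (TC32, 500 nM) and -0.19 (A673, 100 nM) after quantile normalization, while its deposited fall at 100 nM in A673 became 0.24 and its difference under DMSO -0.18. GSTM4 under DMSO became -0.23.

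Leaving out 1 array gave 18 to 30 calls in A673 and 15 to 23 in TC32 at 500 nM as deposited, and 15 to 19 and 20 to 26 relative to the median. At 100 nM the ranges were 10 to 25 and 4 to 10, and 9 to 18 and 7 to 15. Between the doses they were 6 to 22 and 12 to 21, and 8 to 16 and 19 to 26. For the line differences they were 1 to 15 (500 nM) and 0 to 18 (100 nM), and 2 to 5 and 0 to 2. Under DMSO they were 26 to 30 and 24 to 28.

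The 2 arrays a group limit how small a difference can be called. Members near the low end of the signal (HEY1 in A673, PPP1R1A and TSPAN8 in TC32, IL1RAP at both doses and NPY5R at 500 nM in TC32) had signals near or under the filter level, where a fall is hard to read.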
